A study of Mus musculus with 18 samples.

Results

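The H3K9me2 domains of mouse embryonic stem cells (ESC) were set against those of cardiomyocytes (CM) differentiated from such cells. All domains of both H3K9me2 lists on the 19 autosomes were taken, 2431 in ESC and 1140 in CM, or 3571 of the 5624 domains in the 4 lists of the series. The series holds 18 ChIP-seq libraries of H3K9me2, Lamin B and input. Each list is a set of genomic intervals (mm9) that the submitters called enriched.

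The CM list is named in the labels by 2 wild-type libraries, from cells collected on day 10 of a differentiation through embryoid bodies. The ESC list is named by 4 libraries. Of these, 2 were wild-type cells kept in serum-free, feeder-free medium with LIF. The other 2 came from a line labelled CMV-creERT; Hdac3f/f that received no tamoxifen, so its floxed alleles of the histone deacetylase gene Hdac3 were not deleted by treatment. Per the labels' protocols, that line was derived from blastocysts and grown on feeder cells with serum. The sources used here do not say how libraries were joined into a list, and whether an ESC domain is shared by both lines was not tested. The ESC Lamin B list, used below to describe H3K9me2 domains, is named by 6 libraries: the wild-type cells, the untreated floxed line, and the floxed line after tamoxifen had deleted Hdac3, with 2 libraries each. The CM Lamin B list is named by 2 wild-type libraries. The labels describe no sorting of cardiomyocytes. No expression values were used here, so neither cell type was checked against its markers. In such bulk cultures, a mark carried by fewer cells and a weaker mark in every cell cannot be told apart.

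H3K9me2 is the dimethylated form of lysine 9 of histone H3. It is written mainly by the methyltransferases G9a and GLP, and it covers long stretches of repressed chromatin, many of which lie against the nuclear lamina, the protein mesh under the inner nuclear membrane. Lamin B is a component of that mesh, and Lamin B ChIP marks lamina-associated sequence. Changes of such domains during differentiation can take several forms. Neighbouring domains can join across the sequence between them, a domain can extend at its edge, and a domain can disappear as a whole.

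No list has a replicate, so no difference between the cell types could be tested, and the sequencing depth behind a domain is unknown. The lists also differ in resolution. Every ESC edge lies on a grid of 10 kb and every CM edge on a grid of 20 kb, so a break of 10 kb between domains can be seen in ESC and not in CM. For coverage, internal gaps and edges, both lists were therefore placed on a common grid of 20 kb bins. A bin counted as in a list when more than 50% of it was covered. The common grid cannot restore breaks that the wider CM bins did not show. Counts of domains inside other domains, and of domains touching none, used the deposited coordinates and so keep the difference in resolution. Shares of domains, gaps and edges are given with Wilson 95% intervals, which treat these items as independent and cover counting error only. On the common grid 1142.0 Mb lay in both lists. The background against which the counts below were read was 6.40% of the 119564 bins in CM alone (153.1 Mb) and 2.08% in ESC alone (49.7 Mb). CM edges already lie on this grid, so the bin rule shortens ESC domains only. It raises the CM-alone sequence and lowers ESC coverage of CM domains. As deposited, ESC domains span 1216.2 Mb and CM domains 1295.2 Mb.

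A part of the CM domains held several ESC domains side by side. Of the 1140 CM domains, 398 (34.9%, 32.2 to 37.7) held at least 2 ESC domains, where an ESC domain counted as inside when more than 50% of its length lay in the CM domain. A further 644 held a single ESC domain and 98 held none. The 398 domains took in 1238 ESC domains, 50.9% of the ESC list, and spanned 722.6 Mb of the 1295.2 Mb of CM H3K9me2. Most held few, since 340 had 2 to 4 ESC domains, 51 had 5 to 9 and 7 had 10 or more. The reverse was less frequent. Of the 2431 ESC domains, 15 (0.617%, 0.374 to 1.02) held 2 CM domains, and none held more. How far the wider CM bins account for this unequal division was not tested. After both lists were merged across gaps of 20 kb or less, 298 CM domains (27.8%) held several ESC domains and 11 ESC domains several CM domains. Merged across gaps of 100 kb or less, these were 157 (17.3%) and 24. With domains from the median score of their list upward these were 185 and 3. In the Lamin B lists, whose bins are 9 kb in ESC and 11 kb in CM, 68 of 826 CM domains (8.23%) held at least 2 ESC domains and 32 of 708 ESC domains (4.52%) held at least 2 CM domains.

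The share of CM domains with several ESC domains rose with CM domain length up to about 1 Mb and then levelled. It was 4.62% (2.60 to 8.09) of the 238 CM domains under 200 kb, 24.7% (20.5 to 29.5) of the 356 from 200 to under 500 kb, and 50.4% (44.0 to 56.9) of the 226 from 500 kb to under 1 Mb. Among the 150 CM domains of 1 to under 2 Mb it was 58.0% (50.0 to 65.6), among the 127 of 2 to under 5 Mb 58.3% (49.6 to 66.5), and among the 43 of 5 Mb and over 55.8% (41.1 to 69.6). The intervals of the last 3 classes overlap widely. A longer domain has more room, and the number of ESC domains inside per Mb of CM domain fell from 5.74 in the shortest class to 0.485 in the longest. Of the 43 longest CM domains, 19 held a single ESC domain and 6 held 10 or more.

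**Figure D1:**
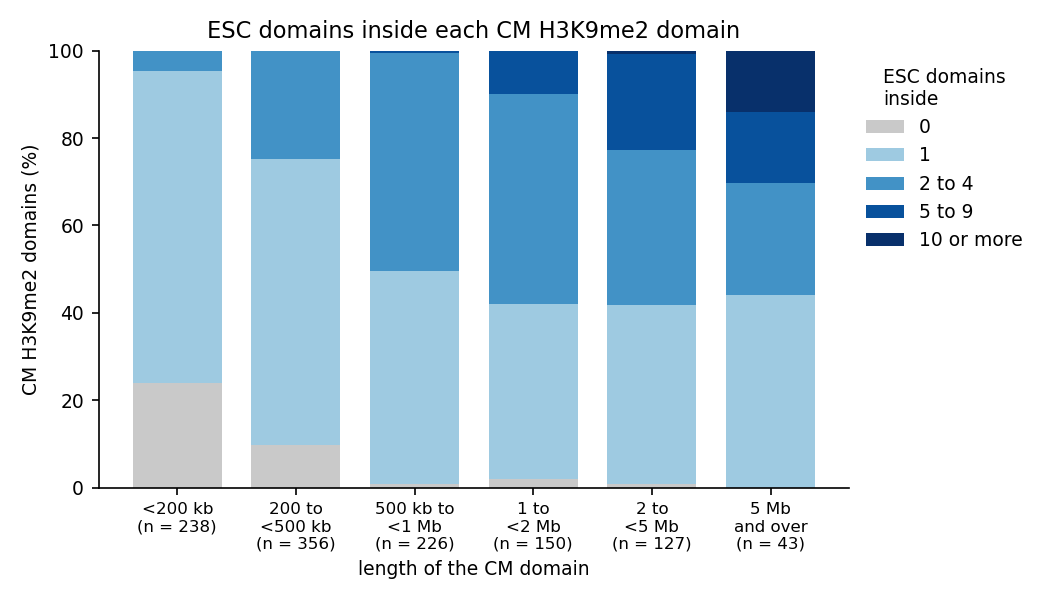
Stacked bars give the percentage of CM H3K9me2 domains (y axis) that hold 0, 1, 2 to 4, 5 to 9, or 10 or more ESC domains, by length of the CM domain (x axis, with the number of domains). Domains with 5 or more ESC domains appear from 1 Mb up, with 1 exception of 600 kb.

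A single ESC domain made up more than 50% of the length in many joined domains, though not in most of the shorter ones. Across the 398 CM domains with several ESC domains, the longest ESC domain inside had a median length of 55.7% of the CM domain. It exceeded 50% in 235 of them. By CM domain length, it did so in 5 of 11 under 200 kb and 38 of 88 from 200 to under 500 kb. From 2 to under 5 Mb it did so in 55 of 74, and from 5 Mb up in 18 of 24. The most divided CM domain was chr6:8480001-28080000 (19.6 Mb). It held 23 ESC domains with 22 gaps between them, the longest gap being 340 kb, and its longest ESC domain covered 18.4% of it. ESC bins made up 86.2% of this CM domain. Lamin B lay over 98.3% of it in ESC and over 98.8% in CM. The longest CM domain, chr14:80180001-118180000 (38.0 Mb), held 17 ESC domains, of which a single one of 19.2 Mb took up 50.4% of the length. Its ESC coverage was 92.6%, and its longest gap 400 kb.

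Below 5 Mb, the 45 CM domains with 5 or more ESC domains were spread over 17 autosomes, with 7 on chromosome 3 and 6 on chromosome 7. In the class of 500 kb to under 1 Mb, the highest number was 5, in chr7:15840001-16440000, which had no ESC Lamin B and 80.7% CM Lamin B. The neighbouring chr7:13960001-15740000 had the highest number among domains of 1 to under 2 Mb, with 9 ESC domains. ESC Lamin B covered 65.2% of it and CM Lamin B 100%. Among domains of 2 to under 5 Mb, chr16:25080001-28820000 came first with 10 ESC domains, ESC H3K9me2 on 68.4% of its bins, and Lamin B on 48.1% in ESC and 75.3% in CM. In the map of this domain, a single CM Lamin B domain ran from 1045 to 3355 kb past the left edge, a stretch where ESC had 4 separate Lamin B domains.

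**Figure D2:**
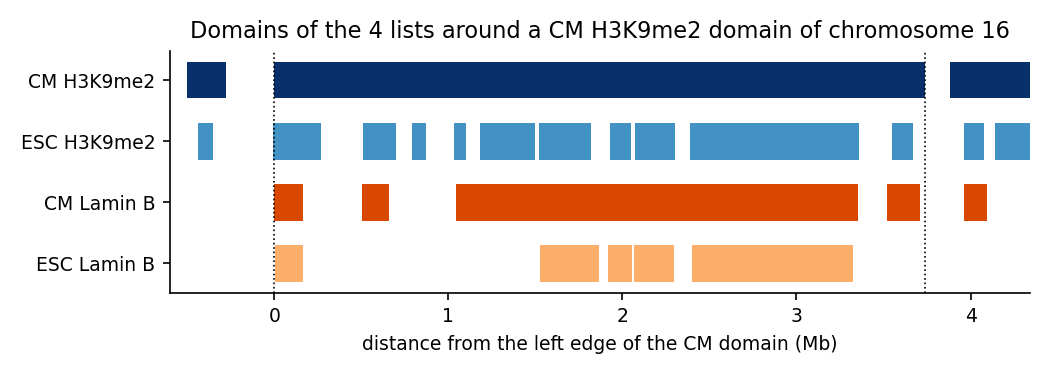
Bars show the domains of the 4 lists (rows) along a CM H3K9me2 domain of chromosome 16, with distance from its left edge in Mb on the x axis and dotted lines at both edges. The CM H3K9me2 domain of 3.74 Mb spans 10 ESC H3K9me2 domains.

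Within CM domains, sequence without ESC H3K9me2 was divided into internal gaps, which have ESC bins on both sides in the same CM domain, runs at an edge, and CM domains with no ESC bin at all. Internal gaps held 71.1 Mb (46.4% of the CM-alone sequence), edge runs 65.3 Mb (42.6%) and whole CM domains 16.8 Mb (11.0%). The mix changed with CM domain length. A domain of any length has 2 edges, while room for internal gaps grows with length. How much of the change this accounts for was not tested. Internal gaps made up 3.58% of the CM-alone sequence of domains under 200 kb and 15.1% of that from 200 to under 500 kb. They made up 36.1% from 500 kb to under 1 Mb, 61.2% from 1 to under 2 Mb, 65.1% from 2 to under 5 Mb and 88.8% from 5 Mb up. Edge runs fell from 63.3% in the class of 200 to under 500 kb to 11.2% in the longest. Whole-domain gains made up 44.5% in domains under 200 kb, and the 9.01% in the class of 2 to under 5 Mb was a single domain of chromosome 3, chr3:154340001-157540000.

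ESC coverage of a CM domain was higher in longer domains. An edge run of a given length takes a larger share of a short domain than of a long one. Its median was 75.0% for CM domains under 200 kb and 73.9% from 200 to under 500 kb. It was 87.7% from 500 kb to under 1 Mb, 92.9% from 1 to under 2 Mb, 95.6% from 2 to under 5 Mb and 98.7% from 5 Mb up. The spread was wide in short domains, with quartiles of 43.3% and 100% under 200 kb, and narrow in the longest, with quartiles of 93.4% and 99.6%. ESC covered every bin in 208 CM domains (18.2%) and fewer than 50% of the bins in 171, of which 64 were under 200 kb and 82 from 200 to under 500 kb.

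The 850 internal gaps had a median length of 40 kb. Of these, 231 (27.2%) were a single bin of 20 kb and together held 6.50% of the gap sequence, whereas the 71 gaps of 220 kb and over (8.35%) held 33.1% of it. Gaps were most frequent in CM domains of 500 kb to under 1 Mb, at 1.04 per Mb of CM domain. In shorter domains they numbered 0.359 per Mb under 200 kb (12 gaps) and 0.946 per Mb from 200 to under 500 kb. In longer ones they numbered 0.937 per Mb from 1 to under 2 Mb, 0.582 from 2 to under 5 Mb and 0.376 from 5 Mb up. The gaps of the longest CM domains were longer, with an upper quartile of 160 kb against 60 kb in the class of 500 kb to under 1 Mb.

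Sequence without ESC H3K9me2, edge runs included, lay at different relative places in domains of different length. Each side of a domain's centre was divided into 5 equal parts from the edge inward. The parts grow with domain length, so an edge run of a given length fills less of the outermost part of a longer domain. In CM domains of 2 to under 5 Mb, 17.0% of bins in the outermost part lacked ESC H3K9me2, and 5.59% to 6.96% in the 4 inner parts. In domains of 5 Mb and over the outermost part lacked it on 5.00% of bins and the next on 1.92%, but the 2 parts nearest the centre lacked it on 7.70% and 6.86%. These values pool the bins of 43 domains, so the longest domains weigh most.

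The 5 longest internal gaps were of 580 to 740 kb, and their lamina state differed. The gap at chr7:11340001-12080000 (740 kb) lay wholly in CM Lamin B with 2.43% in ESC Lamin B, and chr16:76120001-76700000 (580 kb) had 100% CM and 0% ESC Lamin B. In chr9:3860001-4540000 (680 kb) and chr1:107380001-107980000 (600 kb) Lamin B covered 100% in both cell types, so these gaps were gaps of H3K9me2 within lamina-associated sequence of ESC. The gap chr16:6960001-7580000 (620 kb) had no ESC and 17.9% CM Lamin B.

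To compare both directions without the choice of a bin rule, every gap between neighbouring domains of a list was followed on exact coordinates, and a gap was called filled when the other list covered all of it. Of 2412 gaps between ESC domains, CM filled 853 (35.4%, 33.5 to 37.3), covered 856 in part and left 703 free. Of 1121 gaps between CM domains, ESC filled 20 (1.78%, 1.16 to 2.74). Among the ESC gaps were 232 of 10 kb, a length that the CM grid cannot show as a gap. For ESC gaps of 20 kb or more the share filled was 30.6% (28.7 to 32.5), 666 of 2180. A gap of 20 kb that starts off the CM grid still cannot appear in CM at the same place. Among Lamin B gaps, CM filled 97 of 689 ESC gaps (14.1%, 11.7 to 16.9) and ESC filled 54 of 807 CM gaps (6.69%, 5.16 to 8.63).

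Short ESC gaps were filled more often than long ones, and full cover is a stricter demand on a long gap than on a short one. CM filled 80.6% (75.0 to 85.2) of gaps of 10 kb, 65.8% (58.9 to 72.1) of those of 20 kb, 61.0% of 336 gaps of 30 to 50 kb, 46.4% of 336 gaps of 60 to 100 kb and 32.0% of 338 gaps of 110 to 200 kb. From 210 to 500 kb the share was 14.4% of 437 gaps, and 7 of 540 gaps over 500 kb (1.30%) were filled. ESC filled 12 of 68 CM gaps of 20 kb (17.6%, 10.4 to 28.4) and 8 longer ones.

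At a given length, ESC gaps inside ESC Lamin B domains were filled more often. Lamin B took no part in the definition of the gaps. Where ESC Lamin B covered more than 50% of the gap, CM H3K9me2 filled 58 of 72 gaps of 20 kb (80.6%, 70.0 to 88.0), against 69 of 121 (57.0%, 48.1 to 65.5) where it covered less. For gaps of 60 to 100 kb the shares were 66.3% (56.5 to 74.9) and 38.2% (32.3 to 44.5), and for gaps of 110 to 200 kb 59.5% (48.8 to 69.4) and 22.8% (18.1 to 28.4). From 210 to 500 kb they were 42.3% (31.5 to 53.8) of 71 gaps and 9.02% (6.49 to 12.4) of 366. At 10 kb the intervals overlapped, at 86.0% (77.5 to 91.6) and 77.0% (69.3 to 83.2). Gaps between CM domains showed the same order over all lengths pooled and at 20 kb. ESC H3K9me2 filled 13 of 113 CM gaps with ESC Lamin B over more than 50% of their length (11.5%, 6.85 to 18.7) and 7 of 1008 others (0.694%, 0.337 to 1.43). At 20 kb these were 8 of 14 (57.1%, 32.6 to 78.6) and 4 of 54 (7.41%, 2.92 to 17.6). The pooled groups differ in length, with 8 of the 113 and 488 of the 1008 gaps over 500 kb. Above 20 kb no length class had more than 2 filled gaps in either group. From 110 to 200 kb the order was opposite, at 0 of 24 and 1 of 116.

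The difference was also present at matched length of the flanking ESC domains. Among gaps of 60 to 200 kb whose shorter neighbour was under 100 kb, CM filled 64.0% (53.7 to 73.2) of 89 gaps with ESC Lamin B over more than 50% of their length and 25.9% (21.1 to 31.4) of 274 others. Where the shorter neighbour was 100 to under 500 kb, the shares were 62.2% (51.4 to 71.9) of 82 and 35.6% (29.4 to 42.4) of 205. With a shorter neighbour of 500 kb and over, 24 gaps remained and the intervals overlapped. Whether the lamina has a part in the filling was not tested, and the ESC Lamin B list may hold sequence from Hdac3-deleted cells.

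**Figure D3:**
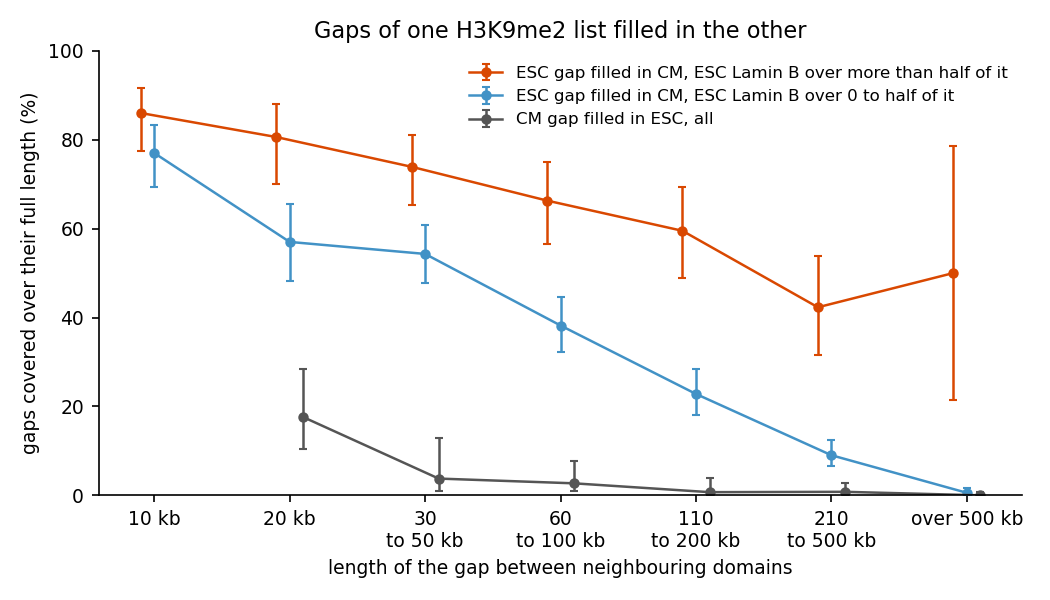
Points give the percentage of gaps between neighbouring H3K9me2 domains that the other cell type's list covered over their full length (y axis), by gap length (x axis), with Wilson 95% intervals as bars. ESC gaps inside ESC Lamin B (orange) lie above the other ESC gaps (blue) at every length, with overlapping intervals at 10 kb, and 1.78% of CM gaps (grey) are filled.

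Over all internal gaps on the common grid, Lamin B covered 46.6% of the sequence in ESC and 65.2% in CM. Bins in both H3K9me2 lists were covered at 81.3% in ESC and 85.8% in CM, and bins in neither at 2.68% and 3.26%, so the gaps stood between these. The figure depended on the CM domain around the gap. In CM domains of 5 Mb and over, 78.7% of gap sequence lay in ESC Lamin B and 93.6% in CM Lamin B, while in domains of 200 to under 500 kb these were 26.0% and 35.3%. Gap length mattered less, with ESC Lamin B over 45.3% of gaps of 20 kb and 47.8% of those over 100 kb.

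CM domains reached past the ESC list at their edges more often than they fell short of it. Of the 2142 edges of the 1071 CM domains with ESC bins, 1067 (49.8%, 47.7 to 51.9) lay beyond the outermost ESC bin, 922 (43.0%) coincided with it, and at 153 (7.14%, 6.13 to 8.31) ESC bins ran on outside. At 40 of these 153 edges, the ESC bins ran without a break up to a neighbouring CM domain. Such a stretch can count at the edges of both domains. The bin rule weighed on the small shifts, since an ESC domain that covers 50% of a bin loses that bin. On exact coordinates 49.7% of edges lay beyond the ESC edge, 22.4% short of it and 27.9% on it. When a bin needed at least 50% cover in place of more, the shares were 36.0%, 23.9% and 40.1%. Shifts of more than 20 kb depended less on the rule. On the common grid 642 edges (30.0%) lay more than 20 kb beyond the ESC edge and 86 (4.01%) more than 20 kb short of it, a ratio of 7.47. The ratio was 6.15 on exact coordinates and 3.34 with at least 50% cover.

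Edge spread was less frequent and shorter in the shortest CM domains and showed no steady order with length above 200 kb. The share of edges beyond the ESC edge was 38.9% (34.3 to 43.8) in domains under 200 kb, 53.0% (49.2 to 56.8) from 200 to under 500 kb and 54.5% (49.8 to 59.0) from 500 kb to under 1 Mb. It was 49.3% from 1 to under 2 Mb, 53.2% from 2 to under 5 Mb and 43.0% (33.1 to 53.6) from 5 Mb up. The median outward shift was 40 kb in each of the 6 classes, with an upper quartile of 40 kb in the shortest class and 80 kb in the others. Its mean was 39.2 kb in domains under 200 kb and 59.5 to 72.0 kb in the 5 longer classes, with the highest value from 500 kb to under 1 Mb. A short domain leaves less room for a long shift. An outward shift of 100 kb or more was seen at 204 edges and an inward shift of that size at 26. Of the 1071 domains, 292 (27.3%) extended at both ends, 205 (19.1%) coincided with ESC at both ends, and 435 extended at a single end with the other in place.

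On the common grid, the mean profile across CM edges was steeper for ESC H3K9me2 than for Lamin B. ESC H3K9me2 covered 6.51% of the bins 0 to 20 kb outside a CM edge, 47.4% of those 0 to 20 kb inside, 65.8% at 20 to 40 kb inside and 82.9% at 100 to 120 kb inside. It was above 91% from 280 kb inward. Farther outside, ESC coverage on this grid was 10.5% at 60 to 80 kb and 3.12% at 480 to 500 kb. The bins beside the edge depend on the bin rule, since an ESC domain that covers 50% of a bin loses that bin. ESC ran on outside 7.14% of edges on the grid and 22.4% on exact coordinates. The profile was not drawn on exact coordinates, so whether ESC coverage dips next to the edge was not tested. CM Lamin B rose from 16.9% in the 20 kb outside to 32.7% in the 20 kb inside and 58.0% at 100 to 120 kb inside, and ESC Lamin B from 15.1% to 27.1% and 48.9%. At every distance inside, up to 500 kb, CM Lamin B coverage was above ESC Lamin B coverage. Bins far from an edge come from long domains, so the profile mixes distance with domain length.

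**Figure D4:**
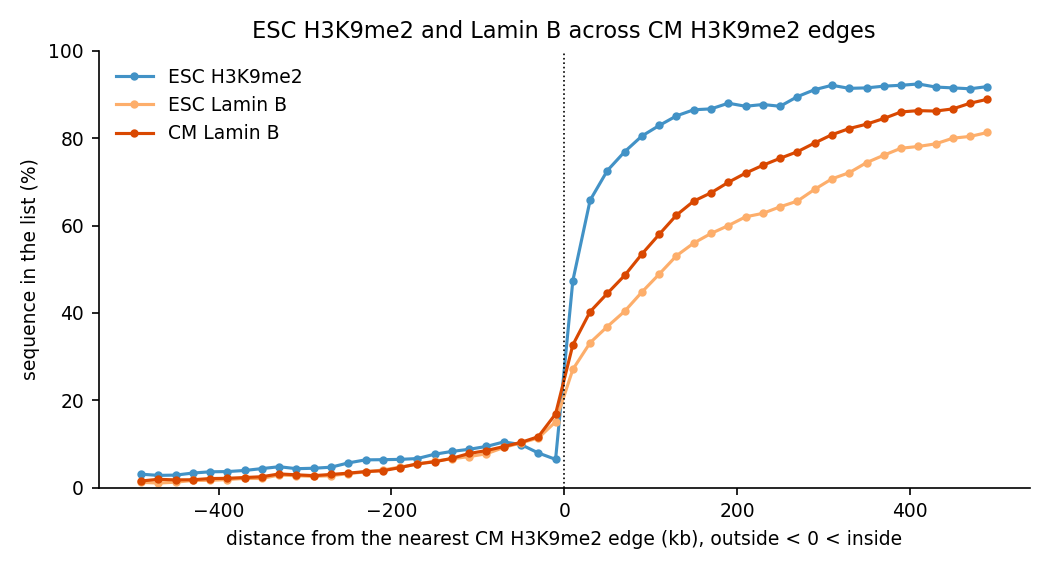
Lines give the percentage of sequence in each list (y axis) in 20 kb steps from the nearest CM H3K9me2 edge (x axis, kb, negative outside the CM domain). ESC H3K9me2 rises from 6.51% to 47.4% across the edge, and Lamin B of both cell types rises more slowly.

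Edge sequence gained in CM had less Lamin B than gap sequence, by a margin that depended on domain length. Lamin B covered 19.1% of the gained edge runs in ESC and 33.5% in CM, and 64.6% of them had Lamin B in neither. Edge runs lie mostly in shorter CM domains than gaps do. In domains of 500 kb to under 1 Mb, Lamin B covered 16.5% of edge runs in ESC and 37.2% in CM, close to the 21.9% and 40.5% of gaps there. In domains of 5 Mb and over it covered 38.6% and 48.3% of edge runs, against 78.7% and 93.6% of gaps. The largest outward shift was of 760 kb, chr3:138740001-139500000, at the edge of a CM domain of 3200 kb, with Lamin B over 75.8% in ESC and 82.2% in CM. The next were of 520 kb each on chromosome 16, chr16:5560001-6080000 and chr16:49680001-50200000, where Lamin B covered at most 7.88% in either cell type. The largest inward shift was of 400 kb, chr5:27580001-27980000, beside a CM domain of 160 kb and outside Lamin B in both cell types. It was followed by 240 kb at chr8:44220001-44460000, where ESC H3K9me2 ran without a break between CM domains of 1680 and 1540 kb. Lamin B covered this stretch wholly in both cell types. A shift of the same size at chr8:88860001-89100000, beside a CM domain of 280 kb, lay outside Lamin B in both.

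ESC domains with no CM counterpart were short. Of the 2431 ESC domains, 527 (21.7%, 20.1 to 23.4) touched no CM domain, and they held 47.3 Mb or 3.89% of ESC H3K9me2 sequence. Their median length was 80 kb (quartiles 60 and 100, range 30 to 460 kb), against 180 kb for ESC domains that touched a CM domain. Loss as a whole domain was limited to the short classes. It took 30 of 70 ESC domains under 50 kb (42.9%, 31.9 to 54.5), 331 of 740 from 50 to under 100 kb (44.7%, 41.2 to 48.3), 152 of 687 from 100 to under 200 kb (22.1%, 19.2 to 25.4) and 14 of 436 from 200 to under 500 kb (3.21%, 1.92 to 5.32). No ESC domain of 500 kb and over was lost as a whole, among 228 of 500 kb to under 1 Mb, 135 of 1 to under 2 Mb, 100 of 2 to under 5 Mb and 35 longer ones. A longer domain meets a CM domain more easily by its length alone. Of the 527 losses, 361 (68.5%) were under 100 kb, a range that holds 810 ESC but 18 CM domains. How far such losses reflect the wider CM bins or the depth of the CM libraries, and not a change of the mark, cannot be told apart.

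Isolated losses lay mostly away from the lamina. Lamin B of neither cell type reached 414 of the 527 (78.6%), compared with 617 of the 1904 ESC domains that touched CM (32.4%). At matched length, domains with ESC Lamin B over more than 50% of their length were set against all other ESC domains, with no regard to CM Lamin B. From 50 to under 100 kb, 52 of 191 domains in ESC Lamin B were lost (27.2%, 21.4 to 33.9), against 279 of 549 others (50.8%, 46.6 to 55.0). From 100 to under 200 kb the shares were 8.85% (5.80 to 13.3) of 226 and 28.6% (24.7 to 32.9) of 461. Under 50 kb they were 23.8% (10.6 to 45.1) of 21 and 51.0% (37.5 to 64.4) of 49, and from 200 to under 500 kb 2.97% of 236 and 3.50% of 200. The intervals overlapped in these last 2 classes. Of the 84 isolated losses with ESC Lamin B over more than 50% of their length, 58 also had CM Lamin B over more than 50%.

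**Figure D5:**
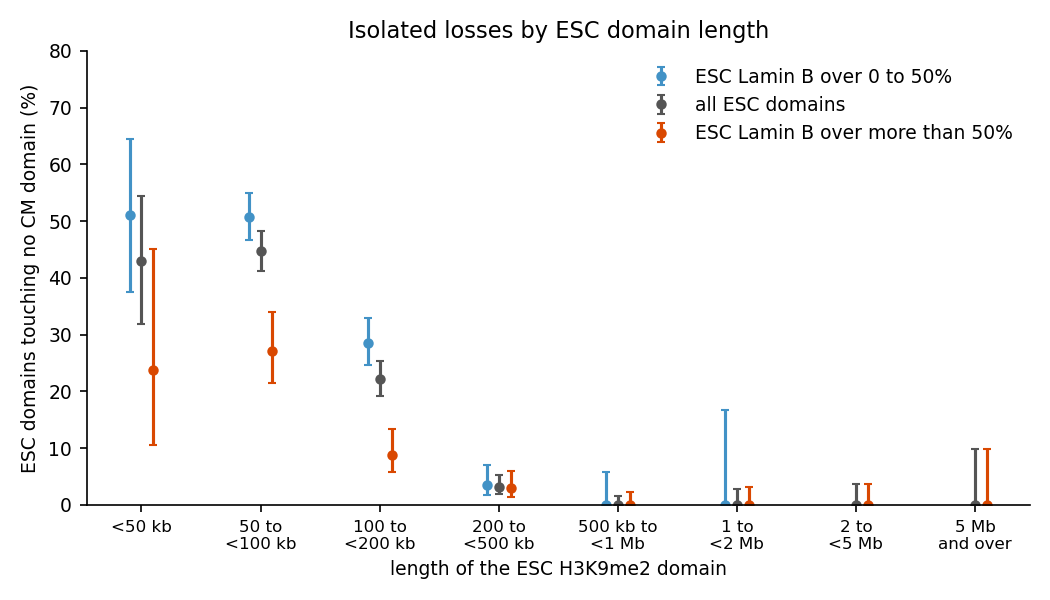
Points give the percentage of ESC H3K9me2 domains that touch no CM domain (y axis) by ESC domain length (x axis), with Wilson 95% intervals as bars and classes of fewer than 10 domains left out. Domains with ESC Lamin B over 0 to 50% of their length (blue) were lost more often than those in ESC Lamin B (orange) from 50 to under 200 kb, and from 500 kb up no domain was lost.

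The submitters' score, a value per domain that is compared here among ESC domains, was lower for lost domains in all 4 classes with losses. Its median was 1.73 for lost and 1.76 for other ESC domains under 50 kb, and 2.12 against 2.21 from 50 to under 100 kb. From 100 to under 200 kb it was 3.26 against 3.98, and from 200 to under 500 kb 6.98 against 9.41. Divided by length, the medians per 100 kb were 4.50 for lost and 4.89 for other domains under 50 kb. They were 3.16 and 3.30 from 50 to under 100 kb, 2.68 and 3.11 from 100 to under 200 kb, and 3.11 and 3.22 from 200 to under 500 kb. Among domains in ESC Lamin B the order was opposite in 2 of the 4 classes, at 1.79 for lost and 1.66 for other domains under 50 kb, and at 2.42 and 2.19 from 50 to under 100 kb. Per 100 kb it stayed opposite in the second of these (3.68 and 3.36) but not in the first (4.47 and 4.68). Among the remaining ESC domains it was opposite per 100 kb from 200 to under 500 kb, at 3.11 for 7 lost domains and 3.00 for others.

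Losses lay at a wide range of distances from CM domains, and CM domains of all lengths were nearest to some. The median distance to the nearest CM domain was 150 kb (quartiles 50 and 430 kb). Within 20 kb lay 73 losses and within 100 kb 218 (41.4%), while 120 lay over 500 kb away and 48 over 1 Mb. The share of sequence between CM domains that lies within 100 kb of one was not computed. Whether losses lie nearer to CM domains than that share was therefore not tested. By length of the nearest CM domain, there were 0.408 losses per CM domain under 200 kb, 0.500 from 200 to under 500 kb and 0.512 from 5 Mb up, and the median distances of the 6 classes were 130 to 175 kb. Per Mb of sequence between CM domains, losses were most frequent in stretches of over 200 to 500 kb, at 0.992 per Mb, and least frequent in stretches over 2 Mb, at 0.300 per Mb. The stretch with the most was chr13:43180001-47440000 (4.26 Mb), between CM domains of 160 and 660 kb, with 6 lost ESC domains.

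The longest isolated losses were of 240 to 460 kb. The longest, chr8:131260001-131720000 (460 kb), lay 380 kb from the nearest CM domain in sequence with 100% CM and 0% ESC Lamin B. Next to it, chr8:130890001-131170000 (280 kb) was 10 kb from a CM domain and outside Lamin B in both cell types. The loss chr19:28290001-28550000 (260 kb) was 390 kb from a CM domain and also outside Lamin B. The losses chr11:105530001-105770000 and chr13:32060001-32300000 (240 kb each) were lamina-associated, with at least 99.2% ESC and 93.3% CM Lamin B, whereas chr15:58320001-58560000 of the same length had no Lamin B in either cell type. The losses farthest from CM domains were short, at 70 to 130 kb. They were chr11:121590001-121660000 at 8750 kb, chr9:59940001-60010000 at 7040 kb and chr9:58950001-59080000 at 6050 kb, all outside Lamin B.

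Isolated gains were fewer. Of the 1140 CM domains, 69 (6.05%, 4.81 to 7.59) touched no ESC domain, with a median length of 180 kb and a median distance of 390 kb to the nearest ESC domain. Of these, 7 lay within 100 kb of an ESC domain (10.1%). Chromosome 14 had the most gains, 12, and chromosomes 9 and 11 had 0. Gains on chromosomes 4, 6, 12, 14 and 18 began at position 3000001, close to the chromosome start, where read mapping was not examined. Lamin B of neither cell type reached 48 of the 69, and in 12 CM Lamin B covered more than 50% while ESC Lamin B did not. In the class of 100 to under 200 kb, 35 of 220 CM domains (15.9%, 11.7 to 21.3) stood alone, compared with 22.1% (19.2 to 25.4) of ESC domains of that length, and the intervals overlap. From 200 to under 500 kb, 27 of 356 CM domains did (7.58%, 5.26 to 10.8), against 3.21% (1.92 to 5.32) in ESC, with intervals that just overlap. The longest gains were chr3:154340001-157540000 (3200 kb, CM Lamin B 99.3%, ESC Lamin B 0%), chr18:3520001-4120000 (600 kb, CM Lamin B 34.8%, ESC Lamin B 0%) and chr16:42280001-42860000 (580 kb, no Lamin B).

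Each of the 19 autosomes had more ESC than CM domains, from 1.75 ESC domains per CM domain on chromosome 10 to 2.58 on chromosome 6. The share of CM domains with several ESC domains ranged from 26.2% on chromosome 8 to 45.5% on chromosome 7. Chromosome 16 stood at the end of several orders. Internal gaps made up 11.9% of its CM sequence and edge runs 10.6%, against medians of 5.11% and 4.88% over the autosomes. The next highest were chromosome 7 for gaps (8.67%) and chromosome 13 for edge runs (9.37%). On chromosome 16, 79.4% of CM edges lay beyond the ESC edge and none short of it (4.41% on exact coordinates). It lost 3 of its 90 ESC domains (3.33%), whereas 13.2% to 38.0% were lost on the other autosomes.

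Chromosomes 8 and 11 stood at the opposite end. On chromosome 8, 31.0% of edges lay beyond the ESC edge and 20.6% short of it, an order that turned round on exact coordinates, with 36.5% short of it. On chromosome 11, the shares were 34.4% and 16.7%, or 34.4% and 30.0% on exact coordinates. Chromosome 11 had the highest share of isolated losses, 38 of 100 ESC domains, and chromosome 8 lost 39 of 128 (30.5%). More edges lay beyond than short of the ESC edge on 19 autosomes by the common grid, on 18 by exact coordinates (all but chromosome 8), and on 14 when a bin needed at least 50% cover (not on 2, 6, 8 and 11, and with equal shares on 15). Read depth by chromosome was not analysed here.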

How the data were processed

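H3K9me2 and Lamin B were measured by ChIP-seq, and the values used were the deposited domain lists. STAR, Picard, deepTools and the build mm9 appear in the submitters' processing notes. Each deposited list is labelled g 10, bin auto and fdr 5, per the file headers. The sources used here do not name the domain caller. The deposited score is the authors' value per domain, on a scale that is not given. It was used to set lost against other domains within the ESC list and in an alternative that kept domains at or above the median of their list. Lists were compared with numpy 2.4.6 and scipy 1.17.1 in Python 3.11.15, and figures drawn with matplotlib 3.10.9. The functions were tested on simulated lists with known gaps, edge shifts and losses. The domains, measures and length classes were chosen with earlier results of these data known, and no test was made. Regions named in the text were picked by fixed ranks: most ESC domains in a length class, longest gaps, largest shifts, longest and farthest losses, longest gains. The stretch of chromosome 13 with most losses, and the regions tied with the last of a rank, were picked after their values were seen. Genes and sequences are not given, because the reference tables used a different build, GRCm38. Depth is unknown, and input libraries were not analysed here.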

Additional observations from a re-analysis of the deposited data

How the results depend on the processing

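Across 12 alternatives, 94 of 133 recomputed values stayed within their bound, which was 1.5 times for a count and the 95% interval for a share or a median. Leaving out chromosome 16, or chromosomes 8, 11 and 16, was chosen after seeing the data, and the others were planned. CM domains with several ESC domains outnumbered the reverse in 9 of 9 alternatives, and edges beyond the ESC edge outnumbered those short of it in 10 of 10. Merging both lists across gaps of 100 kb or less, which by construction removes short gaps, left 157 CM domains with several ESC domains, 24 ESC domains with several CM domains, 246 internal gaps, 47.0% of edges beyond the ESC edge and 257 isolated losses. With domains kept from the median score upward (4.06 in ESC, 9.97 in CM) these were 185, 3, 327, 55.0% and 338, from fewer domains. Edges beyond the ESC edge fell to 36.0% when a bin needed at least 50% cover, which by construction lengthens ESC domains. Internal gaps fell to 584 under that rule. Edges short of the ESC edge were 22.4% on exact coordinates. Leaving out chromosome 3 gave 372, 11, 784, 49.7% and 499. No paired analysis was possible because the libraries of a cell type share a joint list, and for the same reason no library could be left out. The planned description of gene content was not run. Depth behind the lists is unknown, so it cannot be told how far it limits the shorter domains.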

Other observations

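The X chromosome, which is outside the autosomal comparison, showed the same kinds of difference. It had 241 ESC and 96 CM H3K9me2 domains, and 29 of the CM domains (30.2%) held at least 2 ESC domains. Internal gaps made up 56.8% of its CM-alone sequence, edge runs 38.8% and whole domains 4.40%. Of its CM edges, 46.1% lay beyond the ESC edge and 6.18% short of it on the common grid. On X, 55 ESC domains (22.8%) touched no CM domain, with a median length of 80 kb and a median distance of 160 kb, and 7 CM domains (7.29%) touched no ESC domain. Whether X differs from the autosomes was not tested.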
